A study of Mus musculus with 4 samples.

Results

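RNA of 9 adipose stromal progenitor markers was followed in whole mammary fat pad (MFP): Pdgfra, Dpp4, Pi16, Ly6a, Icam1, Thy1, Fap, Clec11a and Cd34. The members were taken by gene symbol from the deposited count table, where each of the 9 symbols stands on 1 of 55487 gene rows. The study sequenced ribosome-depleted total RNA of the MFP of female C57BL/6J mice, 2 samples aged 14 months and 2 samples aged 8 weeks, with no allele, agent or tumor named in the sample labels for either age. The study's methods name both strain J and, for animals injected in the MFP, C57BL/6NCrl, and the substrain given here is that of the labels. The labels call the 2 samples of an age biological replicates, without saying how many mice gave each sample or which of the fat pads was taken. The tissue was lysed whole, so every value is a sum over all cell types in the pad, and fewer cells of a type cannot be told apart from less RNA per cell.

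White fat holds stromal progenitors, fibroblast-like cells that carry the PDGF receptor alpha and can become adipocytes. In mouse subcutaneous fat, interstitial progenitors marked by Dpp4 and Pi16 lie in the connective tissue around the fat lobules and can give rise to committed preadipocytes marked by Icam1. Few of these markers belong to progenitors alone. Thy1, Dpp4 and Icam1 are also made by lymphocytes or other leukocytes, Ly6a by blood cells, and Cd34, Ly6a and Icam1 by endothelium. This list of sources is not complete.

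None of the 9 markers passed the test of aged against young MFP, and they fell into distinct patterns by sample. Pdgfra, Ly6a, Cd34, Fap and Clec11a were higher in both aged samples than in both young samples, by modest amounts. Thy1, Dpp4 and Icam1 were each several-fold higher in young replicate 1 than in young replicate 2, whereas Pi16 was several-fold higher in young replicate 2 than in young replicate 1. Young replicate 1 was also the library with by far the most RNA of T cell and B cell markers. The interstitial markers Dpp4 and Pi16 were therefore highest in different young samples. The ratio of Dpp4 to Icam1 was lower in both aged samples, while the ages overlapped for the ratio of Pi16 to Icam1.

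Total counts ran from 68803304 to 98402403 per library, and levels are given as CPM, counts divided by library totals that were scaled with the TMM method. By the quasi-likelihood test of edgeR, adjusted after Benjamini and Hochberg, 0 of 22485 genes tested passed an adjusted p of 0.05 (percent called, 0), 2371 had an unadjusted p under 0.05 (10.5%), and DESeq2 called 865 genes (3.86% of 22385). All 9 members had enough counts to be tested. The 8 mature adipocyte markers summed to between 7186 and 11418 CPM and the 8 mammary epithelial markers to between 914 and 2219 CPM, so both tissue components were present in every library. The 8 T cell markers summed to 774 CPM in young replicate 1 and to 6.29 CPM in young replicate 2, with 12.1 and 63.2 CPM in aged replicates 1 and 2. The 6 B cell markers summed to 549 CPM in young replicate 1, 3.25 CPM in young replicate 2, and 6.52 and 72.0 CPM in the aged replicates. The 12 skeletal muscle markers were higher in the aged libraries, at 43944 and 70649 CPM against 11538 and 16067 CPM in the young. The part of these other tissues in the values below was not tested. Values without young replicate 1 do not test it, as aged replicate 2 then has the highest T and B cell sums.

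Dpp4 and Icam1 stand for the interstitial and the committed state and were both highest in the same library, so the DNA just upstream of their starts is shown here. Each stretch is 250 bases before the RefSeq start on GRCm38.p6, written 5′ to 3′ on the strand of the gene, at chr2:62412232-62412481 (minus strand) for Dpp4 and chr9:21015690-21015939 (plus strand) for Icam1. Capitals mark matches to GGAAATNCC, a form of the site bound by NF-kB, a transcription factor of inflammation.
Dpp4: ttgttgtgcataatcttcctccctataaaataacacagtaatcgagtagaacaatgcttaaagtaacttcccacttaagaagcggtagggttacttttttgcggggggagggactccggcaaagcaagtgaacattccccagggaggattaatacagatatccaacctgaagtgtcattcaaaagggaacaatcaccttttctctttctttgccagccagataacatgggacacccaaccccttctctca
Icam1: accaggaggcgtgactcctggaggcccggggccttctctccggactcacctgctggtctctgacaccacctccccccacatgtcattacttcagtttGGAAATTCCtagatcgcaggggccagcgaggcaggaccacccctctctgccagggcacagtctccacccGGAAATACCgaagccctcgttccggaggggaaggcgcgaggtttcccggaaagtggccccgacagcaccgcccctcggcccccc
The Icam1 stretch held 2 matches to this form, beginning 153 and 84 bases upstream of the start, and the Dpp4 stretch held 0. Matches to other, looser forms of the NF-kB site are not reported here. The count of 0 therefore does not mean that the Dpp4 stretch lacks any such site. Searched on both strands, the motif was found in 1.06% of 32851 promoter windows of the same length, and it was chosen after the Icam1 sequence had been seen. The G and C content was 65.2% for Icam1 and 43.6% for Dpp4. Of the 9 members, 6 had a RefSeq promoter in the table used (also Pi16, Pdgfra, Cd34 and Clec11a), and 0 of those other windows held the motif. A match is a description of the sequence only.

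The broad stromal markers were examined first. Pdgfra encodes the receptor for platelet-derived growth factor that marks nearly all adipose fibroblasts and progenitors (ENSMUSG00000029231, chromosome 5 of GRCm38, 75152292 to 75198215). It was at 135 and 97.4 CPM in aged replicates 1 and 2, and at 60.1 and 80.4 CPM in young replicates 1 and 2. Both aged samples lay above both young samples. The aged mean was 116 ± 26.5 CPM (SD, n = 2). The young mean was 70.2 ± 14.3 CPM (SD, n = 2). On the log2 scale, aged minus young came to 0.73 (SE 0.25, edgeR adjusted p = 0.462). The unadjusted p of Pdgfra was 0.0412 in edgeR's test, the single member of 9 under 0.05, where 10.5% of all genes tested were under it.

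Ly6a encodes the surface protein Sca-1, used to sort mouse mesenchymal and blood progenitors (ENSMUSG00000075602, chromosome 15, 74994877 to 74998031). It was at 75.2 and 67.6 CPM in the aged and 54.8 and 59.2 CPM in the young replicates. Its log2 fold change, aged over young as throughout, was 0.32 (SE 0.14, edgeR adjusted p = 0.501). Of the 50-base windows in its annotated transcripts, 19.0% also occur in transcripts of another gene, foremost its neighbours Ly6c1 and Ly6i, so its counts are less certain than those of the other members, whose share was at most 2.27%.

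Cd34 encodes a sialomucin of progenitors and endothelium (ENSMUSG00000016494, chromosome 1, 194938819 to 194961279). It was at 63.5 and 65.3 CPM in the aged and 45.6 and 59.3 CPM in the young replicates, for a log2 difference of 0.30 (SE 0.18, edgeR adjusted p = 0.557). With young replicate 1 left out it was 0.12. The 8 markers of endothelium, which also makes Cd34, had a median of 0.28. For 0 of the 8 were the ages apart. Of all genes tested, 23.3% were higher and 22.8% lower in both aged samples. The part of endothelium in the Cd34 value was not tested.

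Fap encodes fibroblast activation protein, a serine peptidase related to Dpp4 (ENSMUSG00000000392, chromosome 2, 62500943 to 62574075). Aged replicates had 23.8 and 20.4 CPM and young replicates 14.2 and 19.4 CPM, for a log2 difference of 0.40 (SE 0.24, edgeR adjusted p = 0.555). Without young replicate 1 it was 0.19. Fap lies 88.7 kilobases from Dpp4 on the same strand, and these neighbouring relatives had log2 fold changes of opposite sign. Clec11a encodes osteolectin, a secreted growth factor of the C-type lectin family (ENSMUSG00000004473, chromosome 7, 44302687 to 44306902). It was the least abundant member, its counts being 196 and 245 in aged against 159 and 147 in young replicates, or 2.40 and 2.75 CPM against 1.94 and 1.99 CPM. Its log2 fold change was 0.39 (SE 0.28, edgeR adjusted p = 0.593).

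Thus 5 of the 9 members were higher in both aged than in both young samples, where 23.3% of all genes tested were, and 1 was lower in both, where 22.8% were. The same 5 were higher with RLE scaling, added after seeing the data. With total counts as the only scaling, also added, the number was 2 (Pdgfra and Clec11a, with 13.4% of all genes), because Ly6a, Cd34 and Fap then overlapped between the ages. All 5 were at their lowest in young replicate 1, as was Pi16, so that 6 of 9 members were lowest in the library where 33.8% of all genes tested were lowest.

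**Figure D1:**
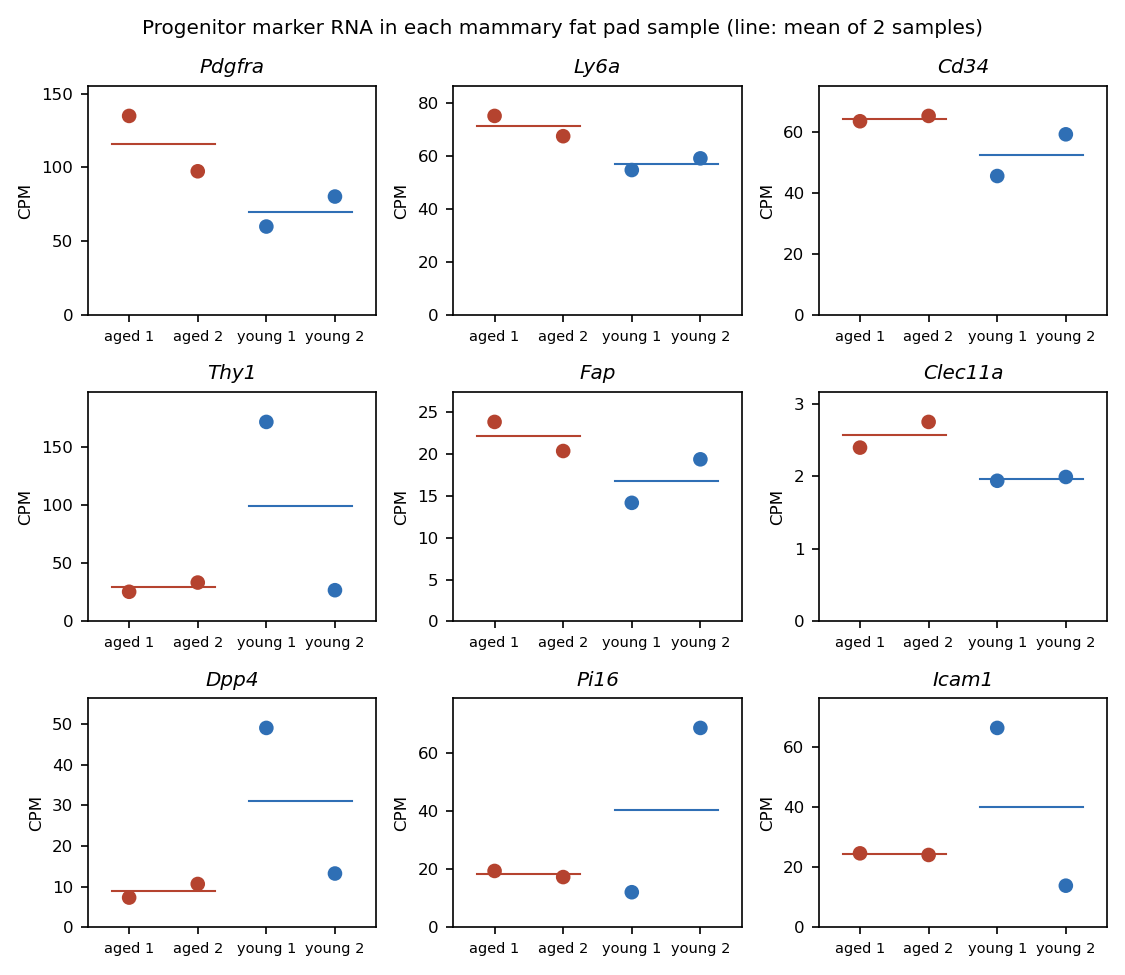
Level of each of the 9 markers in CPM (vertical axes, starting at 0) in the 2 aged and 2 young mammary fat pad samples (horizontal axes), with a line at the mean of each age. Thy1, Dpp4 and Icam1 stand highest in young replicate 1 (171, 49.0 and 66.2 CPM) and Pi16 in young replicate 2 (68.5 CPM), while Pdgfra, Ly6a, Cd34, Fap and Clec11a have both aged points above both young points.

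Thy1, a small GPI-anchored surface protein of fibroblasts, T cells and neurons (ENSMUSG00000032011, chromosome 9, 44043384 to 44048579), had the widest range. Young replicate 1 had 171 CPM and young replicate 2 had 26.8 CPM, with 25.4 and 33.4 CPM in the aged replicates. Young replicate 1 thus stood 5.13-fold above the next sample, and the other young sample lay between the aged ones. For Thy1 the log2 fold change was -1.75 (SE 0.92, edgeR adjusted p = 0.535). Without young replicate 1 it was 0.13.

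Dpp4, the dipeptidyl peptidase CD26 and an interstitial progenitor marker (ENSMUSG00000035000, chromosome 2, 62330073 to 62412231), was at 49.0 CPM in young replicate 1. Young replicate 2 had 13.2 CPM, and the aged replicates 7.33 and 10.7 CPM. Both aged samples were below both young samples, the single member of which this was so. The log2 fold change was -1.79 (SE 0.70, edgeR adjusted p = 0.488, DESeq2 adjusted p = 0.13). Without young replicate 1 it was -0.56.

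Icam1, an adhesion receptor of committed preadipocytes, endothelium and leukocytes (ENSMUSG00000037405, chromosome 9, 21015985 to 21028817), was at 66.2 CPM in young replicate 1 and at 13.8 CPM in young replicate 2. The aged replicates, at 24.6 and 24.0 CPM, lay between the young ones and differed little from each other. The log2 fold change was -0.72 (SE 0.77, edgeR adjusted p = 0.703), and without young replicate 1 it was 0.81.

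Pi16, a secreted peptidase inhibitor family protein and the other interstitial marker (ENSMUSG00000024011, chromosome 17, 29317680 to 29330593), had the opposite order among the young samples. Young replicate 2 had 68.5 CPM and young replicate 1 had 12.1 CPM, with 19.4 and 17.3 CPM in the aged replicates. Young replicate 2 stood 3.53-fold above the next sample, and the ages overlapped. The log2 fold change was -1.14 (SE 0.85, edgeR adjusted p = 0.602), and without young replicate 2 it was 0.60.

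These 4 members varied among the young samples more than most genes did. On the log2 CPM scale the young replicates differed by 2.67 for Thy1, 2.50 for Pi16, 2.26 for Icam1 and 1.89 for Dpp4. Of all genes tested, 4.25%, 4.67%, 5.39% and 7.13% differed by more between the young replicates, respectively. For the other 5 members the gap was at most 0.45, which between 46.4% and 93.6% of genes exceeded. Between the aged replicates no member differed by more than 0.54, the gap of Dpp4. Of all genes tested, 22.0% differed by more between the aged replicates than Dpp4, and 26.0% by more than Pdgfra. For the other members this share was between 31.8% (Thy1) and 92.1% (Icam1).

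**Figure D2:**
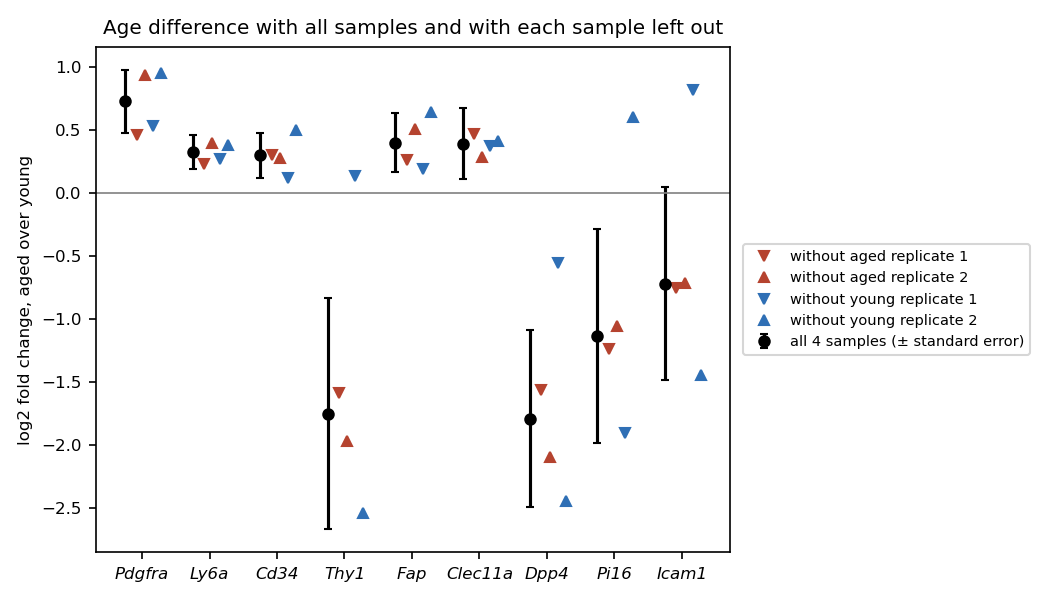
Log2 fold change, aged over young (vertical axis), for each marker, with all 4 samples (black, bars are the standard error from edgeR) and with each sample left out (triangles). Leaving out young replicate 1 moves Thy1 from -1.75 to 0.13 and Icam1 from -0.72 to 0.81. Leaving out young replicate 2 moves Pi16 from -1.14 to 0.60. The other 6 markers keep their sign, which follows from the ages not overlapping for them.

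The 3 markers that peaked in young replicate 1 were set beside lymphoid markers in the same libraries. Young replicate 1 was the highest library for 34.1% of all genes tested, so a peak there is not by itself particular to these markers. All 8 T cell markers and all 6 B cell markers were highest in that library, as were the 4 of 5 lymph node stroma markers with enough counts. The T cell sum there was 12.2-fold above the next library, aged replicate 2, and the B cell sum 7.63-fold. Aged replicate 2, the second library in T cell sum, was also second in Thy1. Young replicate 2, the lowest in T and B cell sums, was second in Dpp4 and lowest in Icam1. Among macrophage markers, whose sum was 516 CPM in young replicate 1 and 216 to 349 CPM elsewhere, Lyz2 alone was highest in young replicate 1. The mouse inguinal fat pad encloses a lymph node, and whether one was taken with any sample is not given in the sources used here. Leaving young replicate 1 out reverses the sign for Thy1 and Icam1, as given above, and leaves Dpp4 with a smaller difference of the same sign. As said above, values without that library do not test the part of lymphoid RNA. That part in Thy1, Dpp4 and Icam1 was not tested.

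**Figure D3:**
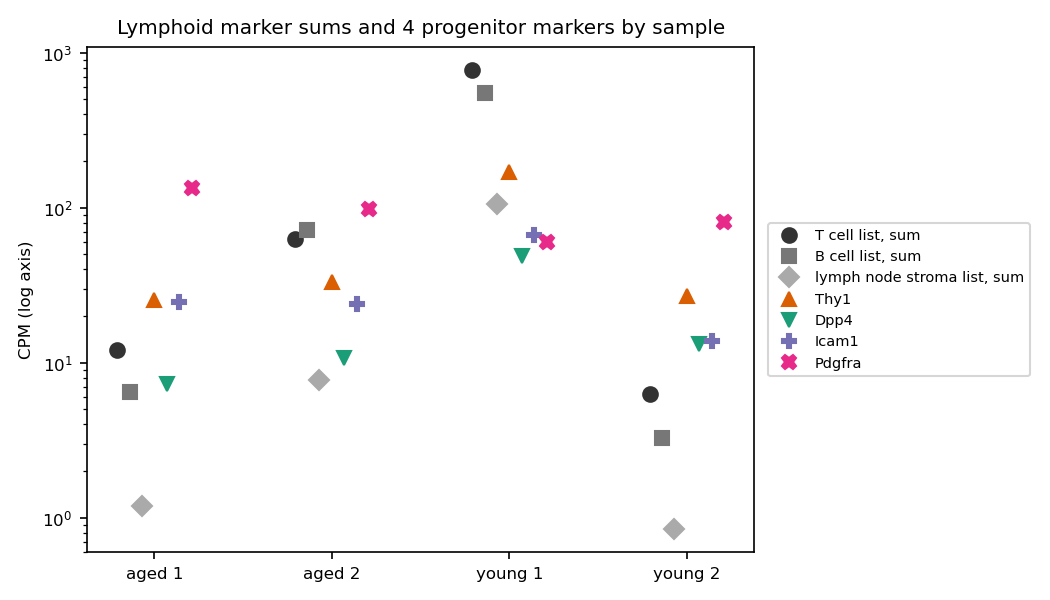
Summed CPM of the T cell, B cell and lymph node stroma marker lists (grey and black) and CPM of Thy1, Dpp4, Icam1 and Pdgfra in each sample, on a log axis. The T cell sum reaches 774 CPM in young replicate 1 against 6.29 to 63.2 CPM in the others, and Thy1, Dpp4 and Icam1 are also highest there, while Pdgfra is lowest there at 60.1 CPM.

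The balance of interstitial against committed markers was taken as a ratio of counts within a library, which does not depend on how libraries are scaled. The ratio of Dpp4 to Icam1 was 0.298 and 0.444 in the aged replicates, and 0.740 and 0.956 in the young replicates 1 and 2. Both aged samples were lower, with a mean log2 ratio of -1.46 ± 0.41 (SD, n = 2) in aged and -0.25 ± 0.26 (SD, n = 2) in young. The difference of -1.21 had a two-sided exact permutation p of 0.333, the smallest that 2 samples against 2 can give. With any sample left out it lay between -1.50 and -0.92, and its sign could not change, as both aged samples were below both young ones. In young replicate 1 both genes of this ratio and the lymphoid markers were at their highest, and the part of lymphoid RNA in the ratio was not tested.

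The ratio of Pi16 to Icam1 gave another picture. It was 0.789 and 0.719 in the aged replicates, which lay between 0.183 in young replicate 1 and 4.95 in young replicate 2. The difference in mean log2 ratio, aged minus young, was -0.34 (exact two-sided permutation p = 1), and without young replicate 2 it was 2.04. With the log2 values of Dpp4 and Pi16 averaged over Icam1, the difference was -0.77 (exact two-sided permutation p = 1), and 0.51 without young replicate 2. The young replicates thus spanned the aged ones for each of these ratios of Pi16 over Icam1, with or without Dpp4. Between the interstitial markers themselves, with no correction for length, Pi16 counts were 2.65 and 1.62 times those of Dpp4 in the aged replicates, 0.247 times in young replicate 1 and 5.17 times in young replicate 2.

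**Figure D4:**
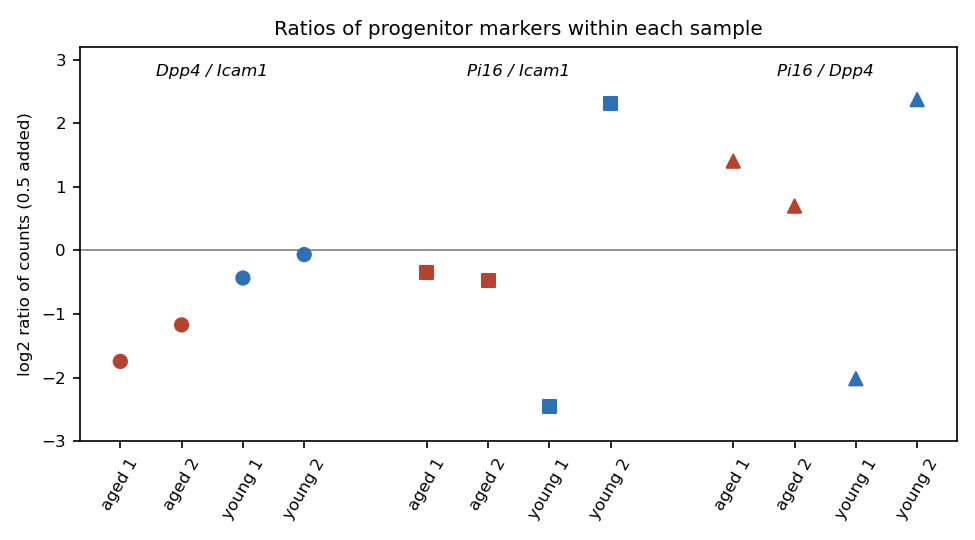
Log2 ratio of counts (vertical axis) of Dpp4 to Icam1, Pi16 to Icam1 and Pi16 to Dpp4 in each sample, aged in red and young in blue, with a line at equal counts. For Dpp4 to Icam1 both aged points lie below both young points, while for the ratios with Pi16 the young points lie at either end, from -2.45 to 2.31 for Pi16 to Icam1.

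The other members were related to Pdgfra in the same way, as log2 ratios of counts, which again need no scaling. For Fap the ratio was -2.50 and -2.26 in aged against -2.08 and -2.05 in young replicates. For Cd34 it was -1.09 and -0.58 in aged against -0.40 and -0.44 in young, and for Ly6a -0.84 and -0.53 against -0.13 and -0.44. Relative to Pdgfra these 3 were therefore lower in both aged samples, although their scaled levels were higher. Pdgfra itself was higher in both aged samples, with a log2 fold change of 0.73 beside a median of -0.04 over all genes. The share of all genes that were lower relative to Pdgfra was not computed, so these ratios show nothing particular to a member. Clec11a overlapped, at -5.81 and -5.14 in aged against -4.95 and -5.33 in young. For Thy1 the ratio was -2.41 and -1.55 in aged replicates, 1.51 in young replicate 1 and -1.58 in young replicate 2. Dpp4 had -4.20 and -3.19 in aged replicates, -0.29 in young replicate 1 and -2.60 in young replicate 2. Pi16 had -2.80 and -2.49 in aged replicates, -2.31 in young replicate 1 and -0.23 in young replicate 2. Dpp4 and Pi16 were thus also lower in both aged samples relative to Pdgfra. Icam1 overlapped, at -2.46 and -2.02 in aged against 0.14 and -2.54 in young replicates 1 and 2. These ratios are not corrected for transcript length and compare samples, not the levels of the genes.

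The order of levels among the genes was taken per length, as CPM per kilobase of annotated exons. Ly6a had the highest mean at both ages, 59.2 in aged and 47.3 in young MFP. Pdgfra followed in aged MFP at 11.6 CPM per kilobase, then Thy1 at 9.81 (8.49 and 11.1 in the replicates) and Cd34 at 8.83 (8.71 and 8.95), so Thy1 overlapped both of its neighbours in this order, with Pdgfra at 13.5 and 9.72. Icam1 at 5.58, Fap at 3.90, Pi16 at 2.88, Dpp4 at 1.42 and Clec11a at 0.864 came after them, each with its aged replicates apart from those of the next. In young MFP most of the order could not be set. In young replicate 1 Thy1 stood above Ly6a, at 57.2 against 45.5. Between the young replicates Thy1 ran from 8.94 to 57.2, Icam1 from 3.18 to 15.2, Pi16 from 1.90 to 10.8 and Dpp4 from 2.10 to 7.75 CPM per kilobase. Clec11a was lowest there too, at 0.660.

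The members were then placed among further markers of the same states, which were described by counts and medians without a test. The 15 interstitial markers, Dpp4 and Pi16 among them, had a median fold change of -0.08 (log2) beside -0.04 over all genes, with 6 higher, 9 lower and 0 called by edgeR or DESeq2. Of the 13 that are not members, 7 were highest in young replicate 2, where 23.4% of all genes tested were highest. Limch1, at 74.9 and 73.3 CPM in aged and 32.3 and 49.1 CPM in young replicates, had the highest log2 fold change in this list (0.86, adjusted p = 0.426 from edgeR). Wnt2, a secreted Wnt ligand, had the lowest of the genes other than Dpp4 and Pi16 (-1.10, adjusted p = 0.501 from edgeR), with 1.30 and 1.28 CPM in the aged, 1.82 in young replicate 1 and 3.71 in young replicate 2. Without young replicate 2 the median of the 15 was 0.68.

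The 13 committed preadipocyte markers had a median of 0.41, with 10 higher and 3 lower in aged MFP, 0 called by edgeR and 1 by DESeq2. Of the 13, 8 were higher in both aged samples (23.3% of all genes). Several of them, such as Lpl, Pparg, Fabp4 and Cd36, are also made by mature adipocytes, whose 8 markers had a median of 0.44. Sparcl1, a secreted matrix protein, had the highest log2 fold change (1.25, adjusted p = 0.396 from edgeR and 0.0116 from DESeq2), at 245 and 170 CPM in aged against 73.6 and 100.7 CPM in young replicates. Col15a1, a basement membrane collagen, had the lowest apart from Icam1 (-0.53, adjusted p = 0.501 from edgeR). Icam1 was thus one of 3 genes of this list with a negative value, together with Col15a1 and Col4a1. Without aged replicate 1 the median of the list was 0.072.

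**Figure D5:**
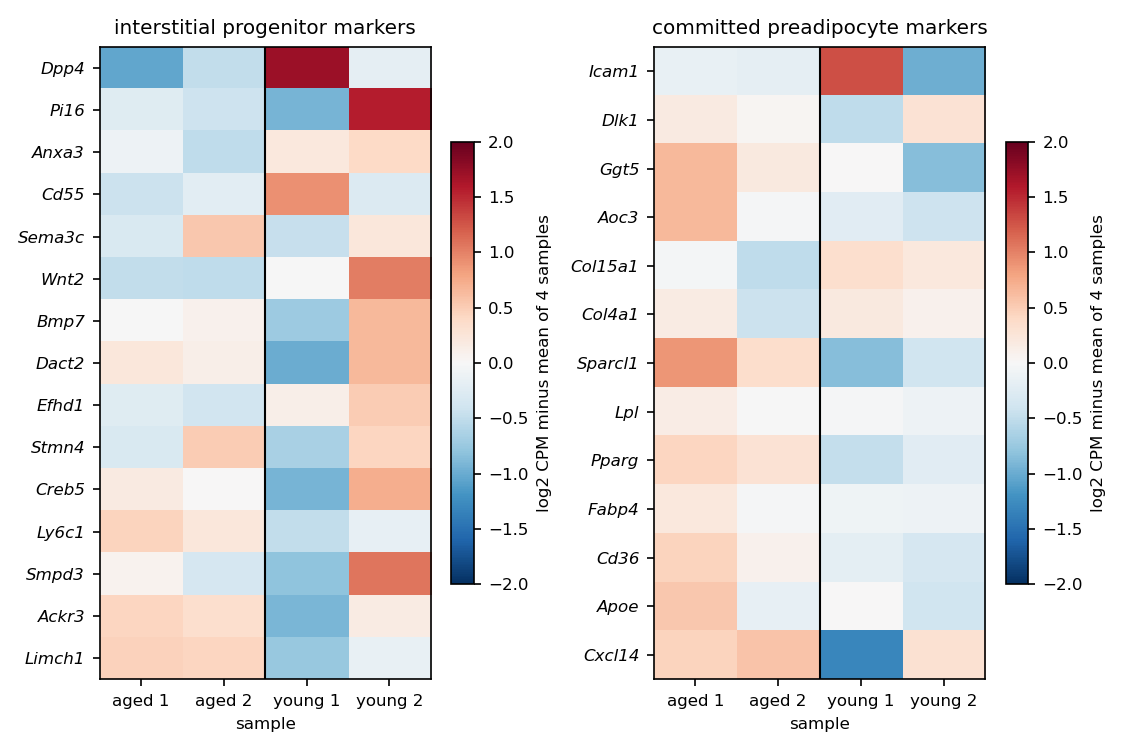
Log2 CPM minus the mean of the 4 samples (colour, cut at 2 in either direction) for the 15 interstitial and 13 committed markers (rows) in each sample (columns). Dpp4 and Cd55 are highest in young replicate 1, Pi16 and 7 other interstitial markers in young replicate 2, and 8 of the committed markers in aged replicate 1.

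The list of the CD142-positive regulatory state, which includes Clec11a, had 5 of 8 genes higher in both aged samples (23.3% of all genes) and 2 lower in both (22.8%), with a median of 0.53 and 0 called by edgeR and 1 by DESeq2. That gene was Gdf10, a BMP family ligand, at 19.0 and 14.6 CPM in aged and 3.03 and 7.28 CPM in young replicates (log2 fold change 1.71, adjusted p = 0.431 from edgeR and 0.0339 from DESeq2). Meox1, a homeobox factor, had the lowest value of the list (-0.91, adjusted p = 0.494 from edgeR) and was highest in young replicate 1 at 10.1 CPM, as was Abcg1.

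Among the 16 pan-fibroblast genes, which include Pdgfra, Ly6a, Thy1 and Cd34, the median was 0.26, with 11 higher and 5 lower in aged MFP and 0 called by edgeR. Gsn, which encodes the actin-severing protein gelsolin, had the highest value (1.38, adjusted p = 0.458 from edgeR and 0.0244 from DESeq2). Col1a1, a chain of type I collagen, had the lowest (-1.60, adjusted p = 0.36 from edgeR and 1.99e-05 from DESeq2), at 503 and 350 CPM in aged and 1213 and 1368 CPM in young replicates. DESeq2 called 2 genes of this list higher (Gsn and Dcn) and 3 lower (Col1a1, Col1a2 and Col3a1) in aged MFP, where it called 3.17% of all genes higher and 0.692% lower. The 8 activated fibroblast genes, Fap among them, had a median of -0.46 with 2 higher and 6 lower and 0 called by edgeR or DESeq2. In this list Acta2, smooth muscle actin, had the highest value apart from Fap (0.26, adjusted p = 0.848 from edgeR) and Cthrc1 the lowest (-1.15, adjusted p = 0.543 from edgeR). Of the 7 that are not members, 6 were highest in young replicate 2, where 23.4% of all genes tested were highest. Fap itself was highest in aged replicate 1. Without young replicate 2 the median of the 8 was 0.03.

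The remaining lists describe other cell types, with 0 genes called by edgeR. DESeq2 called 8 of the 12 skeletal muscle genes and 1 adipocyte gene (Lep) higher in aged MFP, and 0 in the other lists. Their medians in aged over young MFP were -3.43 for T cells, -2.72 for B cells, -2.68 for lymph node stroma, 0.55 for macrophages, 0.28 for endothelium, 0.25 for mammary epithelium, 0.21 for Schwann cells, 0.44 for mature adipocytes and 2.07 for skeletal muscle. The log2 fold changes ran from -3.94 (Cd5) to -2.82 (Trac) for T cells and from -4.15 (Cr2) to -0.61 (Ccl19) for lymph node stroma. They ran from -1.12 (Lyz2) to 0.81 (Mrc1) for macrophages, from -0.07 (Pecam1) to 0.39 (Tek) for endothelium and from -0.17 (Krt8) to 1.36 (Krt5) for epithelium. They ran from -0.05 (Retn) to 1.20 (Lep) for adipocytes and from 1.04 (Myl1) to 8.04 (Myh2) for muscle. Without young replicate 1 the medians of the T cell, B cell and lymph node lists were 2.69, 3.59 and 3.04.

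The genes whose pattern over the 4 samples was nearest to each of the 3 contrasted markers were found by the root mean square difference of centred log2 CPM, among 13958 genes with a mean of at least 1 CPM. Nearest to Dpp4 were Rmi2 (0.030), Adcy7 (0.079) and Ulbp1 (0.084). Nearest to Icam1 were Cxcl16 (0.029), Tnfrsf1b (0.038) and Cubn (0.098), and nearest to Pi16 were Defb1 (0.16), Kcne3 (0.19) and Adamts18 (0.19). Among the members, the one nearest to Dpp4 was Thy1 at 0.32, with Pi16 the farthest at 1.63. These are descriptions over 4 libraries, with nothing drawn from them about shared function.

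Genes on the other strand overlap the exons of Dpp4, Icam1, Pdgfra and Cd34, and the sources used here do not give the strand setting of the counting. The overlapping genes had at most 13 counts per library for Dpp4, 10 for Icam1 and 11 for Pdgfra, and between 23 and 46 for Cd34. Pi16 is overlapped by AC162182.1, whose counts are not analysed here.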

How the data were processed

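The members and gene lists were chosen with earlier results of these data known. Per the deposited table, which the authors made, values are raw counts for 4 libraries, without normalization or pooling. The submitters' processing notes name featureCounts, R 3.6.1 and the builds GRCm38 and hg38. The aligner, annotation and strand setting are not given in the sources used here, and the study's methods name DESeq2. Samples were grouped by the age in their titles. Counts were filtered by filterByExpr (22485 genes kept), scaled by TMM and fitted on age alone in edgeR 4.0.16 (glmQLFit, glmQLFTest, R 4.3.3), with calls at 0.05 after Benjamini-Hochberg adjustment over all genes tested. DESeq2 1.42.0 was run as an alternative. The standard error is the size of a log2 fold change over the root of F. CPM uses TMM-scaled totals, log2 CPM a prior count of 2, and ratios 0.5 added counts. At this depth 3 counts equal 0.0337 to 0.0407 CPM, which covers counting error only. As the labels do not describe the animals, p-values measure the spread between these samples. Coordinates, exon lengths and overlaps come from GENCODE M21 (GRCm38), which holds 55227 of the 55487 identifiers. Where several rows carry a symbol (114 symbols), the one with the highest total was used. The genes named were the 9 members, the highest and lowest log2 fold change of each list apart from members (not reported here for 2 lists), genes called by edgeR in a list (0 genes), and the 3 genes nearest in pattern to Dpp4, Pi16 and Icam1, leaving out Gm and Rik symbols. Abcg1, Cd55, Col4a1, Dcn, Col1a2 and Col3a1 were named after their values were seen, as were Lpl, Pparg, Fabp4 and Cd36. Same-numbered samples did not deviate together (correlation -0.48 over 22485 genes, which are not independent replicates). With 2 samples an age, samples of crossed numbers then have a correlation of the same size and positive sign, and its source was not tested. Alternatives were RLE scaling, total counts only, scaling without muscle and mitochondrial genes, no filter, at least 10 counts in every sample, DESeq2, a replicate block, 2 added counts for ratios, and each sample left out. The code was tested on simulated counts.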

Additional observations from a re-analysis of the deposited data

How the results depend on the processing

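The number of genes called was 0 under every alternative with edgeR and 865 with DESeq2 (710 higher, 155 lower), and the number of members called was 0 under every alternative. No direction of a member changed with the scaling, filter or test, while scaling by total counts moved the median over all genes by -0.18, to -0.22. Among members, Icam1 and Thy1 changed direction only without young replicate 1, and Pi16 only without young replicate 2. When single samples were left out, log2 fold changes ran from -1.90 to 0.60 for Pi16, from -1.45 to 0.81 for Icam1 and from -2.54 to 0.13 for Thy1. They ran from -2.44 to -0.56 for Dpp4, 0.46 to 0.95 for Pdgfra, 0.12 to 0.50 for Cd34 and 0.19 to 0.64 for Fap. The age difference in log2 ratio ran from -2.05 to 0.51 for Dpp4 and Pi16 over Icam1 and from -2.71 to 2.04 for Pi16 to Icam1. List medians ran from -0.56 to 0.68 for interstitial, 0.072 to 0.70 for committed and 0.13 to 0.44 for pan-fibroblast markers, the last at 0.078 with total counts only. Scaling without muscle genes gave no value for the muscle list. A sample left alone in its age was assumed to vary like the others. The cause of these moves was not tested. A fit with a replicate block called 0 genes and 0 members, with log2 fold changes of -1.53 for Dpp4, -0.65 for Pi16, -0.32 for Icam1, -1.22 for Thy1 and 0.72 for Pdgfra, and an interstitial median of 0.07. The numbers crossed between the ages as a block, added after seeing the data, also gave 0 calls. In that edgeR fit 2 of 9 members and 2494 of 22485 genes tested had an unadjusted p under 0.05. In the main edgeR fit such p-values numbered 1 among the 9 members and 2371 among the 22485 genes tested (10.5%). By DESeq2 they numbered 3 among the 9 members and 3120 among 34805 genes. The lowest member, Clec11a, had 147 to 245 counts, well above the floor of 3.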
